A study of Arabidopsis thaliana with 9 samples.

Results

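The small RNAs of iron-sufficient shoots were described from the +Fe libraries of wild type Arabidopsis thaliana, ecotype Col-0. These 3 libraries, biological replicates 1 to 3 by their labels, were 3 of the 9 in the series, and the -Fe and Fe resupply libraries were not used. The +Fe plants spent 14 days on 1/2X MS medium with Fe, 3 days on fresh MS medium with Fe and a last 24 hours on 1/2X MS medium with Fe, so they carried no mutation, no transgene and no treatment other than these transfers. The labels also hold a growth text on soil-grown plants, and do not say how many plants made up a replicate. A whole shoot is a mixture of cell types, in which more cells of a type and more RNA per cell cannot be told apart. As only 1 condition was described, no test was made, and errors are the SD over the 3 libraries.

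Plants make several classes of small RNA. MicroRNAs (miRNAs), mostly of 21 nt, are cut from hairpin transcripts of MIR genes by DICER-LIKE1 and guide ARGONAUTE1 to matching mRNAs. Trans-acting siRNAs are made from TAS transcripts: a miRNA cuts the transcript, a second strand is synthesised, and DICER-LIKE4 cuts the double strand from the cleavage site in steps of 21 nt. Heterochromatic siRNAs of 24 nt come from transcripts of RNA polymerase IV, mainly at transposons and repeats, and guide DNA methylation through ARGONAUTE4. Fragments of rRNA, tRNA and chloroplast RNA enter small RNA libraries as well.

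The table held 33171 rows of 3 kinds: 29053 clusters, which are stretches of the genome covered by small RNA reads, 326 miRNAs named by MIR gene, and 3792 sequences listed with no position. Each cluster and each sequence without a position came with 1 RNA, the most abundant one, which was listed once for the whole series. Its length is used below, and it is not the length of all reads of the row. For a miRNA row, the RNA given below is that of the highest cluster overlapping its MIR gene. In 61 of the 326 miRNA rows, the value lay 1 or more below that of this cluster on the log2 scale. Values are log2 normalized, and shares were computed from 2 to the power of these values, named the back-transformed total here. Where a MIR gene overlapped a cluster, the locus was counted once, which left 32914 rows. The back-transformed sums of the rows counted once were 9240580, 9048444 and 8996243 in replicates 1, 2 and 3. These are not read numbers, and the depth of the libraries is unknown.

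The most abundant RNAs of the highest miRNA rows are shown first, as they carried most of the miRNA signal. Capitals mark bases 2 to 8 from the 5′ end.
MIR398b and MIR398c: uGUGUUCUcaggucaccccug
MIR158a: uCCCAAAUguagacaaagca
MIR161: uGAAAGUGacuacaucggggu
MIR159a: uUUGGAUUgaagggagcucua
MIR159b: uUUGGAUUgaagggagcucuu
MIR319a: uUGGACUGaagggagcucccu
MIR166a: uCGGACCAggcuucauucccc
MIR165a: uCGGACCAggcuucauccccc
MIR396b: uUCCACAGcuuucuugaacuu
MIR167a: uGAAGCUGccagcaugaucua
MIR162b: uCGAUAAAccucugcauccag
All of these start with U, and the miR165 and miR166 RNAs share bases 2 to 8.

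The +Fe libraries were dominated by a few loci of structural RNA. The highest row, Cluster_13547 on chromosome 3 (14197250 to 14203200), overlapped the annotated 18S and 5.8S rRNA genes AT3G41768 and AT3G41979. It had log2 values of 21.57, 21.49 and 21.50 and took 33.1% ± 0.58 of the back-transformed total (SD, n = 3). Cluster_4878 on chromosome 2 (1772 to 10622), which overlapped the rRNA genes AT2G01010 and AT2G01020, had log2 values of 20.83, 20.76 and 20.76 and took 19.9% ± 0.27. The 10 highest rows together took 74.1% ± 0.21, the 100 highest 82.6% ± 0.16 and the 1000 highest 88.1% ± 0.10. The other 8 of the 10 highest rows were 7 chloroplast clusters and 1 mitochondrial cluster, Cluster_156, with log2 values of 16.13, 16.23 and 16.19. By genome, nuclear clusters took 76.6% ± 0.76 of the total, the 12 chloroplast clusters 20.5% ± 0.70 and the 144 mitochondrial clusters 1.20% ± 0.054. The miRNA rows held 2.89% ± 0.057, clusters other than miRNAs 95.4% ± 0.062 and sequences with no position 1.72% ± 0.023. All 3 libraries gave nearly the same composition, and the highest row alone took between 32.6% and 33.7% in each.

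Most of the chloroplast signal lay at the rRNA genes of the inverted repeat, a stretch that the chloroplast genome carries as a pair of copies. The 4 clusters over these genes took 15.8% ± 0.68 of the total, and the other 8 chloroplast clusters 4.67% ± 0.13. Cluster_4 (105302 to 109272), over the genes of the 23S and 4.5S rRNA, had log2 values of 18.81, 18.90 and 18.78. Its counterpart in the other copy, Cluster_8 (129382 to 133043), had 18.78, 18.87 and 18.76 and the same most abundant RNA. Cluster_3, over the genes of the 16S and 23S rRNA and of trnA and trnI, averaged 17.98 ± 0.043, and its counterpart Cluster_10 averaged 17.98 ± 0.047. Cluster_2 and Cluster_12 also listed 1 RNA in common, although their log2 means were 18.04 ± 0.032 and 15.65 ± 0.081. Reads from the repeat match both copies, so the split between the clusters of a pair cannot be told from the values. The RNAs of the leading rRNA and chloroplast loci were the following, shown because these 5 sequences name the 7 highest rows.
Cluster_13547: gcggacugcucgagcugc
Cluster_4878: uaaaacgacucucggcaacgga
Cluster_4 and Cluster_8: ccaagaugagugcucuccu
Cluster_2: aguuacuaauucaugaucuggc
Cluster_3 and Cluster_10: uucauggacguugauaagaucuuuc
Their lengths ran from 18 to 25 nt, and none was of 21 or 24 nt.

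These loci also set the lengths of the total. Over all rows counted once, rows whose most abundant RNA had 18 nt took 34.4% ± 0.57 of the back-transformed total, those of 22 nt 25.1% ± 0.23 and those of 19 nt 11.8% ± 0.51. The lengths of the regulatory classes took less, 10.5% ± 0.13 for 24 nt and 4.08% ± 0.056 for 21 nt. Even so, 24-nt RNAs led 15048 rows, or 45.8% of them. The 24-nt share includes 1 chloroplast cluster, with a mean log2 value of 16.44 and 4.76% ± 0.21 of the chloroplast total. Outside the 2 rRNA clusters, 24-nt RNAs led 14533 of 28895 nuclear clusters (50.3%) and took 39.5% ± 0.13 of their total. RNAs of 21 nt led only 1596 of these clusters (5.52%) but took 15.8% ± 0.11. RNAs of 20 nt also had a larger share of the total (7.05% ± 0.37) than of clusters (3.38%). With tRNA and MIR clusters also left out, 10 of 922 clusters held 54.2% ± 2.4 of the 20-nt total. The RNAs of these 10 also occur in rRNA sequence. RNAs of 23 nt led more clusters (12.9%) than their share of the total (8.91% ± 0.16).

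**Figure D1:**
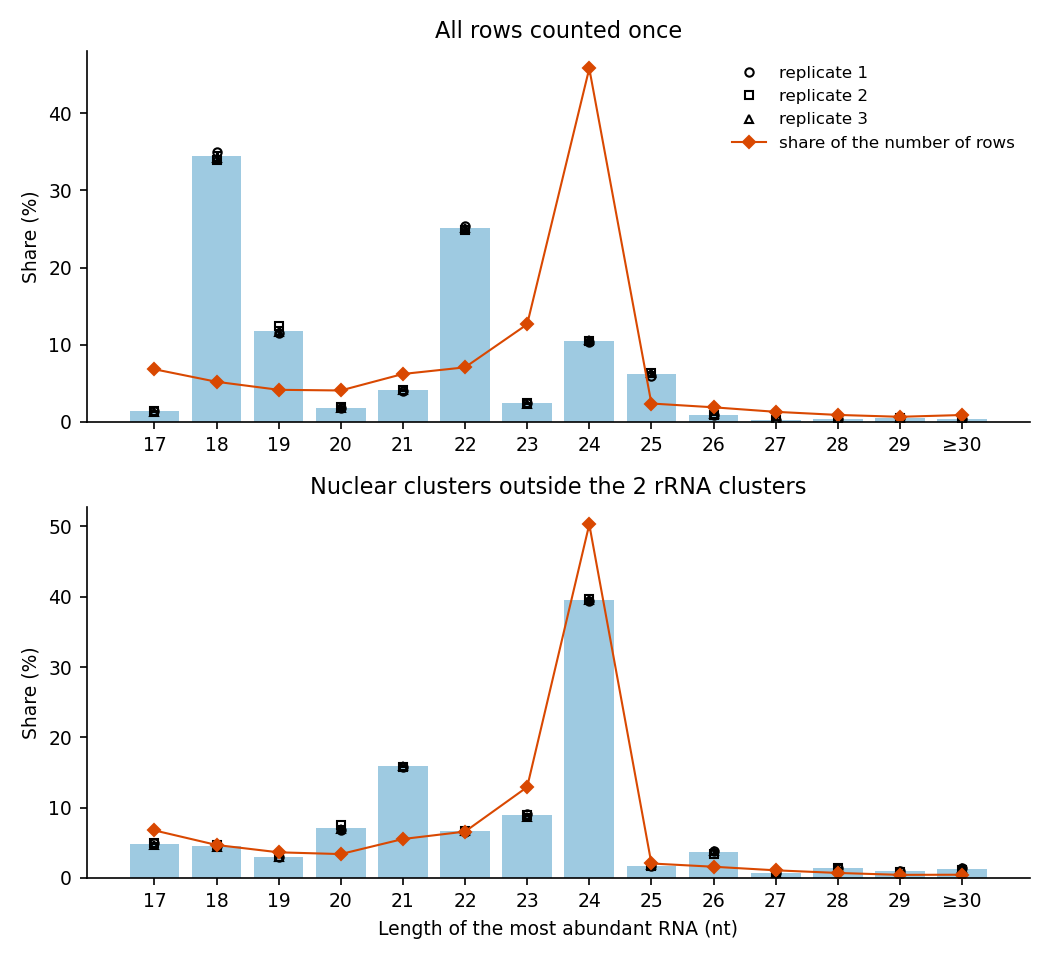
Share of rows by length of the most abundant RNA (x axis, nt), for all rows counted once (top) and for nuclear clusters outside the 2 rRNA clusters (bottom). Bars show the mean share of the back-transformed total with its SD over 3 libraries, open symbols the libraries, and diamonds the share of the number of rows. With all rows, 18 nt and 22 nt lead the total at 34.4% and 25.1%, and outside rRNA 24 nt leads at 39.5%.

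The 21-nt signal was concentrated and the 24-nt signal was spread over many loci. The 10 highest of the 1596 nuclear 21-nt clusters outside rRNA took 62.7% ± 1.1 of their summed value, against 3.82% ± 0.073 for the 10 highest of the 14533 24-nt clusters. Even the 1000 highest 24-nt clusters took only 42.8% ± 0.41. MIR genes accounted for 62.3% ± 0.058 of the 21-nt total through 138 clusters, and the 7 TAS clusters with a 21-nt RNA for 19.8% ± 0.27. The other 1451 clusters held 17.95% ± 0.26.

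The first base also differed between these lengths. It matters as background because ARGONAUTE proteins sort small RNAs in part by their 5′ base, ARGONAUTE1 taking mostly U and ARGONAUTE4 mostly A. Of the 14533 nuclear 24-nt RNAs outside rRNA, 10784 (74.2%) started with A, 10.7% with G, 10.1% with U and 5.05% with C. Weighted by abundance, A had 74.998% ± 0.053, nearly the share by number. Of the 1596 21-nt RNAs, 38.6% started with A and 30.2% with U, whereas U had 81.2% ± 0.37 of the summed value and A 9.45% ± 0.23. At MIR genes, U had 93.4% ± 0.33 of the 21-nt total. With rRNA, tRNA and MIR clusters left out, U had 61.0% ± 0.52. By number, 27.3% of those 1442 clusters started with U and 40.2% with A. That set kept TAS clusters. TAS1C and TAS1A, whose RNAs start with U, took 0.362% and 0.145% of the total of all rows counted once. TAS2, whose RNA starts with G, took 0.183%. The RNAs of 22 and 23 nt started with A in 39.1% and 40.3% of clusters. Among the 100 highest 24-nt clusters 76 started with A, and among the 10 highest 4. The 5 highest outside tRNA and MIR genes are shown with the first base in capitals.
Cluster_18361: Gugauuugggcuauauuacggacc
Cluster_24127: Cugaguugaaggugaaggagcuca
Cluster_14128: Accuucggucucaucuugaacaug
Cluster_11849: Cagaagacucuccauauauauugg
Cluster_5922: Aaugacguggcaagugcugauggu
Cluster_18361 lay outside annotated genes (chromosome 5, 11187957 to 11189047) and had log2 values of 12.39, 12.33 and 12.21. Cluster_24127 (chromosome 1, 10477936 to 10479488) overlapped NRPA2 and CAB1, which encodes a chlorophyll a/b-binding protein of the light-harvesting antenna, and had 11.95, 12.16 and 11.88. Cluster_14128 (chromosome 3, 15628039 to 15643380) overlapped annotated pseudogenes and had 11.89, 11.97 and 12.01.

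Nuclear clusters were sorted by the annotated gene they overlapped by at least 1 nt on either strand. Of 28897 clusters, 11819 overlapped a protein-coding gene, 10106 no annotated gene and 5102 a pseudogene. The annotation used has no class of its own for transposons and marks only 4 nuclear rRNA genes, none of them as 25S, so clusters at others fall under other classes or no annotated gene, and values outside rRNA leave out the 2 rRNA clusters alone. Outside rRNA, clusters at protein-coding genes were 40.9% of nuclear clusters but took 25.6% ± 0.054 of the total, and those at pseudogenes 17.7% and 9.70% ± 0.18. Clusters with no annotated gene were 34.97% of the number and 29.7% ± 0.28 of the total. The small classes went the other way. The 262 clusters at MIR genes were 0.907% of the number and 12.7% ± 0.16 of the total, and the 409 at tRNA genes 1.42% and 9.13% ± 0.59. The 24-nt RNAs led 76.0% of the pseudogene clusters and 72.6% of those with no annotated gene, against 23.01% of those at protein-coding genes and 22.9% of those at MIR genes, where 21 nt led 53.1%. Clusters with no annotated gene held 50.6% ± 0.41 of the 24-nt total.

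**Figure D2:**
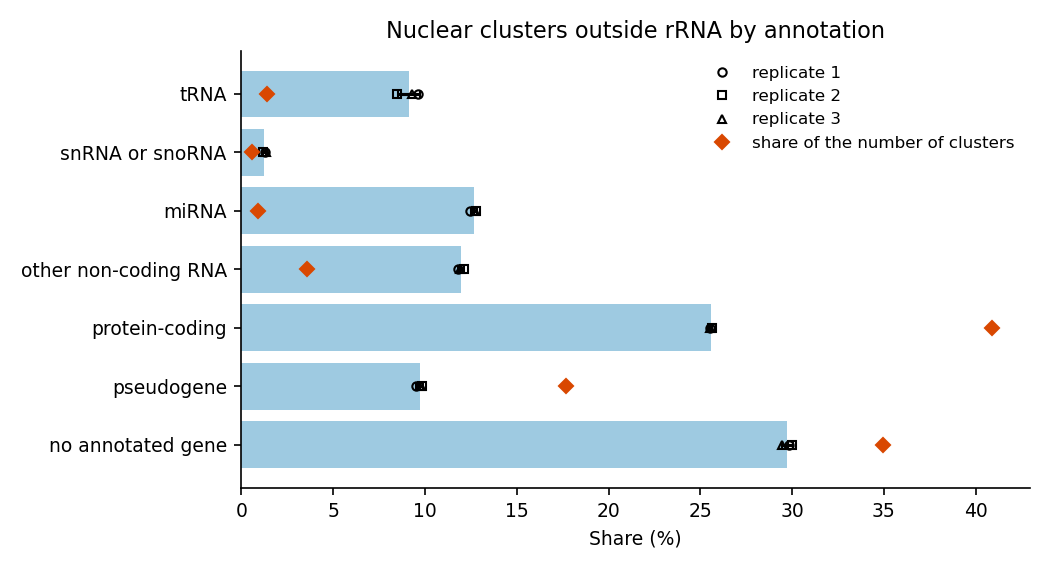
Share of nuclear clusters outside rRNA (x axis, %) by the annotated gene they overlap. Bars show the mean share of the back-transformed total with its SD over 3 libraries, open symbols the libraries, and diamonds the share of the number of clusters. MIR and tRNA genes lie far above their share of the number, protein-coding genes (25.6% against 40.9%) and pseudogenes below it.

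Along the chromosomes, windows with many 24-nt clusters tended to hold few protein-coding genes. Across 116 windows of 1 Mb, the number of 24-nt clusters had a Pearson r of -0.89 and a Spearman rho of -0.87 with that of protein-coding genes, and 0.88 and 0.92 with that of pseudogenes. On no chromosome was the window with the fewest genes the densest. These are descriptions across windows of 1 genome, which share the same 3 libraries and the same list of clusters. The densest windows held 364 such clusters on chromosome 1 (13 to 14 Mb), 332 on chromosome 2 (2 to 3 Mb), 352 on chromosome 3 (11 to 12 Mb), 303 on chromosome 4 (5 to 6 Mb) and 325 on chromosome 5 (13 to 14 Mb). Median windows held 70 to 96. The densest window of chromosome 1 had 82 protein-coding genes, against a median of 256.5 on that chromosome. Several 24-nt RNAs recurred, and the most frequent, aauaggaacauguaauuggaaacu, was listed for 22 clusters with log2 means of 4.90 to 7.72.

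Among the miRNA rows, 10 of 215 families took 84.5% of the summed value. The miR398 family, whose targets include transcripts of Cu/Zn superoxide dismutases and their copper chaperone, held 22.3% ± 1.6, the largest share when every row is counted. MIR398c had log2 values of 14.90, 14.70 and 14.87, and MIR398b 14.77, 14.58 and 14.74. The clusters of both rows listed the same most abundant RNA, so the split between the rows cannot be told from the values. With only the highest row of each distinct RNA counted, miR398 held 14.2% ± 1.2 and came after miR159 (16.1% ± 1.2), miR158 (15.5% ± 0.90) and miR161 (14.9% ± 2.0), with ranges over the libraries that overlapped. MIR398b and MIR398c were both lowest in replicate 2. MIR398a was lower (11.59, 11.42 and 11.43), and the RNA of its cluster was not found in its annotated hairpin. This RNA shared the first 20 bases with the annotated miR398a-3p.

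The next families were close to one another in size. The miR159 family, which targets MYB transcripts, took 13.8% ± 1.1, miR158 13.3% ± 0.87 and miR161, which targets pentatricopeptide repeat transcripts, 12.7% ± 1.6. The 3 values lay within their spread of one another, and their order changed between libraries, with miR161 leading in replicate 1 (14.5%) and miR159 in replicate 2 (14.96%). MIR158a was the highest single miRNA row, with log2 values of 15.003, 15.192 and 15.060, and MIR161 had 15.21, 14.87 and 14.98. MIR159a had 14.23, 14.49 and 14.41, and MIR159b 13.73, 13.93 and 13.73.

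The miR166 family, which targets HD-ZIP transcription factors, took 7.40% ± 0.083 over 7 rows, the least spread among the 5 largest. The clusters of its rows all listed the same most abundant RNA. The log2 means of the rows ran from 4.52 for MIR166b to 14.05 for MIR166a. A mature RNA found at 7 loci gives no reads that tell them apart, so these levels are those the counting assigned. The miR396 family (targets: growth-regulating factors) took 4.29% ± 0.34, miR319 (TCP factors) 3.75% ± 0.29 and miR167 (auxin response factors) 2.98% ± 0.41. The miR156 family, which targets SPL transcripts that promote the adult phase, took 2.06% ± 0.17 over 10 rows. In this family the log2 means ran from 0.23 for MIR156e, which had no cluster, to 10.99 for MIR156c. The miR162 family took 1.91% ± 0.023.

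**Figure D3:**
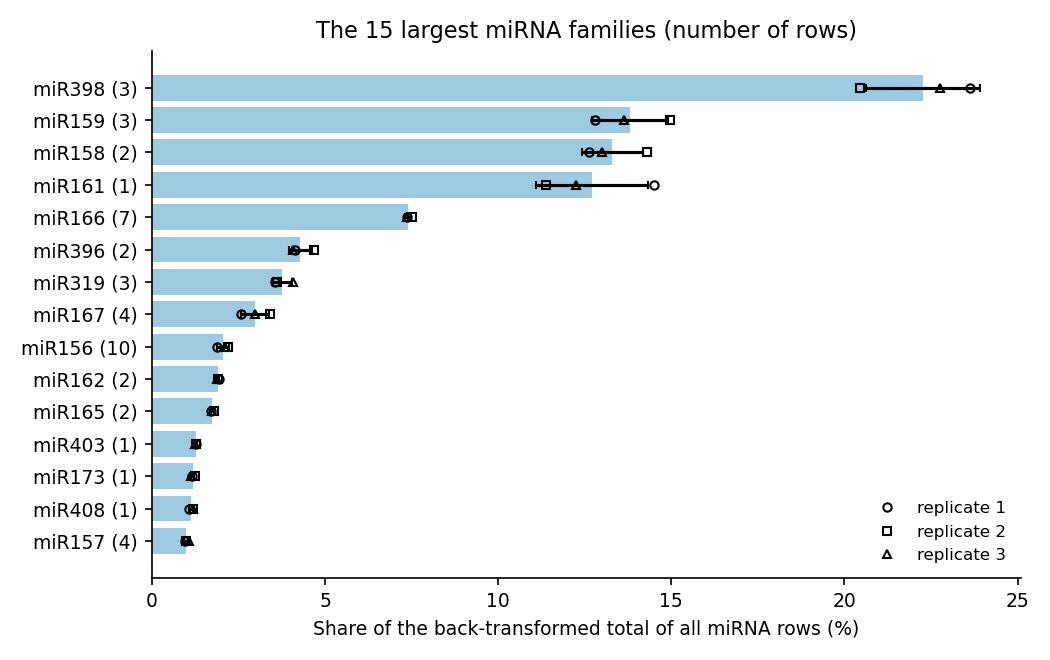
Share of the 15 largest miRNA families in the summed back-transformed value of all miRNA rows (x axis, %), with the number of rows in parentheses. Bars show the mean and SD over 3 libraries, and open symbols the libraries. With every row counted, miR398 leads at 22.3%, and miR159, miR158 and miR161 follow at 13.8%, 13.3% and 12.7% with libraries that overlap. With 1 row per distinct RNA, miR398 has 14.2% and these 3 have 14.9% to 16.1%.

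Several miRNAs act on the small RNA machinery itself. MIR162b, whose miRNA targets DICER-LIKE1, had log2 values of 12.19, 12.20 and 12.17, and MIR162a averaged 8.49 ± 0.052. MIR168a (target: ARGONAUTE1) had 10.56, 10.63 and 10.72, and MIR168b 7.73, 7.75 and 7.73. MIR403, whose miRNA targets ARGONAUTE2, had 11.70, 11.72 and 11.67. For each of these 5 rows, the cluster at the MIR gene listed an RNA identical to the annotated mature miRNA. The miRNAs that start siRNA production from TAS transcripts were at several levels. MIR173 had 11.56, 11.66 and 11.53, MIR390a 9.58, 9.81 and 9.77 and MIR390b 7.98, 8.00 and 7.89. MIR828 had no cluster and values of -0.62, -0.58 and -0.63. For MIR173, the most abundant RNA did not come from the arm of miR173-5p, which cuts TAS1 and TAS2. It lay 4 nt upstream of the annotated miR173-3p, so the level of the row cannot be read as that of the cutting RNA.
MIR173, most abundant RNA: uCUGUGAUucucuguguaagc
miR173-3p as annotated: uGAUUCUCuguguaagcgaaa
miR173-5p as annotated: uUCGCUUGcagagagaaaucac

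The list of miRNA rows was uneven. Of 326 rows, 257 had a cluster. For 117 of these the most abundant RNA of the cluster was identical to the annotated mature miRNA, and for 35 it was shifted. For 25 it lay in the hairpin outside the annotated mature miRNAs, and for 80 it was not in the hairpin. For the 53 rows with a mean log2 value of at least 8, the RNA of the cluster was identical in 42. It had 21 nt in 40 and started with U in 41. At the low end, 41 rows had a mean below 0, and no cluster or sequence without a position had a mean below 1. A list of 24 families that are conserved among land or flowering plants held 92 rows with a median log2 value of 7.12, against 3.42 for the 234 rows of the other 191 families, and 65.5% ± 0.92 of the miRNA total.

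The miR158 signal was not limited to the annotated RNA. Among the sequences with no position, 104 without a match in the genome began with at least 18 bases of an annotated mature miRNA and went on with other bases, and 69 of them began as miR158a. The summed value of these 69 came to 11.2% ± 0.58 of that of the MIR158a row, and the 14 with a tail of U alone to 7.23% ± 0.38. The highest are shown with the tail in capitals. The first 3 lack the last base of miR158a before the tail, and the fourth lacks 2.
miR158a less 1 base, and UU: ucccaaauguagacaaagcUU
miR158a less 1 base, and UUU: ucccaaauguagacaaagcUUU
miR158a less 1 base, and UUUU: ucccaaauguagacaaagcUUUU
miR158a less 2 bases, and UUU: ucccaaauguagacaaagUUU
Their log2 values were 9.10, 9.15 and 9.06 for the first, 8.96, 9.04 and 8.92 for the second, 8.60, 8.61 and 8.59 for the third and 8.11, 8.21 and 7.92 for the fourth. No other miRNA had more than 5 such sequences. All 104 tails had at least 2 nt, and none was of A alone. Only sequences with no position were searched, so any tailed RNAs counted within clusters are left out of these numbers, shares and tail lengths. The lack of tails of 1 nt can therefore not be read as a trait of the tails in these shoots. In plants, tails of U are added by the nucleotidyl transferases HESO1 and URT1 to miRNAs that lack the methyl group of their 3′ end. How the tails listed here arose was not tested.

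The 8 TAS loci together took 0.740% ± 0.0051 of the total, and their levels differed widely. TAS1C was the highest of them (15.05, 14.98 and 14.99), followed by TAS2 (13.99, 14.03 and 14.05) and TAS1A (13.68, 13.74 and 13.63), all 3 cut by miR173. TAS3A, cut through miR390 and the source of siRNAs against auxin response factors, had 11.25, 11.41 and 11.25, and TAS1B 10.72, 10.73 and 10.66. TAS3B averaged 8.01 ± 0.20, TAS4 6.47 ± 0.21 and TAS3C 4.92 ± 0.23. TAS4 is cut by miR828, whose own row was below 0. The cluster at TAS1B also overlapped MIR5636.

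For each TAS transcript, the site with the most bases paired to its miRNA was found along the annotated gene. At TAS3 loci, the 3′ one of the 2 best sites was used. The cut was placed between bases 10 and 11 of the miRNA. The distance from the cut was measured to the start of the most abundant RNA. For RNAs of the other strand, at TAS1B and TAS2, it was measured to the 3′ end, with an offset of 2 nt. At 5 of the 8 loci the distance was a whole number of 21-nt steps: 21 nt at TAS1C, 84 nt at TAS1A, TAS2 and TAS3C and 147 nt at TAS4. At TAS3A it was 148 nt, 1 nt from such a step. At TAS1B and TAS3B it was 76 and 121 nt, 8 and 5 nt from the nearest step. The sites used paired 14 bases at TAS3B, 16 at TAS3A, 17 at TAS3C and 19 to 21 at the other loci. The RNAs below lay in step by this measure, and bases 2 to 8 are in capitals.
TAS1C: uCGGUGGAucuuagaaaauua
TAS1A: uGAUUGGAucuuaggaaauua
TAS2: gAAUACUUgaacuaccaucua

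Among tRNA genes, RNAs from the 5′ end of the tRNA prevailed. They led 264 of the 409 tRNA clusters and held 87.5% ± 0.48 of their total, against 4.98% ± 0.26 for 3′ ends that carried the added CCA. The clusters of tRNA-Gly took 33.0% ± 0.88, those of tRNA-Glu 22.0% ± 1.0, tRNA-Ala 10.998% ± 0.60 and tRNA-Ser 8.86% ± 0.48. The highest, Cluster_22950 at the tRNA-Gly gene AT1G12590, had log2 values of 14.73, 14.45 and 14.67, and replicate 2 was the lowest. The CCA of a tRNA is added after transcription and is not in its gene. Such 3′ ends were therefore also listed among the sequences with no position, which the shares within tRNA clusters leave out. Of the 3792 sequences with no position, 786 ended in CCA and held 33.4% ± 1.3 of their total. For 499 of the 3792, with 24.4% ± 1.2 of the total, the RNA was identical to the 3′ end of an annotated tRNA with CCA. Of the 3792, 2605 had no exact match in the reference genome (59.0% ± 0.055 of the total) and 972 had more than 50 matches (38.8% ± 0.058). The highest, a 17-nt RNA found 227 times on the 5 chromosomes, had 12.09, 12.17 and 11.92. The next was the 5′ end of tRNA-Tyr, found at 64 genes, with 11.95, 11.85 and 11.93. These RNAs are shown with an added CCA in capitals.
Cluster_22950, tRNA-Gly 5′ end: gcgucuguaguccaacgguuaggaua
Cluster_10190, tRNA-Ser 5′ end: guggacgugccggagugguuauc
No position, 227 matches: ccucguguugcaucccu
No position, tRNA-Tyr 5′ end: ccgaccuuagcucaguugguaga
No position, tRNA-Gln 3′ end: uucucgguagaaccuCCA

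A part of the signal placed at other nuclear loci had RNAs that also occur in rRNA, tRNA or organelle sequence. The most abundant RNA of each nuclear cluster outside rRNA, tRNA and MIR genes was looked up in the mature tRNAs with CCA, in the 2 rRNA loci with the genes that overlap them, and in the chloroplast and mitochondrial genomes, allowing 1 end base to be missing. Nuclear rRNA genes outside the 2 loci were not looked up, so an RNA with no match here may still occur in rRNA. Of the 28224 clusters looked up, 1077 (3.82%) had a match, and these took 14.9% ± 0.40 of their total. Among those led by RNAs of 17 to 19 nt, 22.0% of 4205 clusters and 43.6% ± 0.97 of the total matched, against 0.471% of 14433 clusters and 0.238% ± 0.0038 for 24 nt. At other lengths a few clusters carried large matched shares of the total: 57.9% ± 2.2 through 22 of 922 clusters at 20 nt, 31.8% ± 0.75 through 10 of 1852 at 22 nt and 44.2% ± 0.55 through 18 of 1675 at 25 nt or more. RNAs of 21 and 23 nt matched for 1.13% ± 0.017 and 5.88% ± 0.056 of their total. Of the 50 highest of these clusters, 31 had no match. Cluster_25415 at the long non-coding RNA gene AT1G07017 had log2 values of 15.10, 15.18 and 15.13, and its 22-nt RNA also occurs in the chloroplast genome. Cluster_16391, outside annotated genes, had 14.43, 14.45 and 14.54 and a 28-nt RNA with a chloroplast match. Cluster_13549 and Cluster_13542, near the rRNA locus of chromosome 3, listed the same 20-nt RNA at 14.72 ± 0.13 and 14.72 ± 0.12.
Cluster_25415: uugggcuuuuccugcgcagcuu
Cluster_16391: uauucugguguccuaggcguagaggaac
Cluster_13549 and Cluster_13542: ccuuugucgcuaagauucga

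At protein-coding genes the strand of the RNA depended on its length. Among clusters that overlapped 1 protein-coding gene, held their RNA on 1 strand and had no such match, the RNA was on the strand of the gene in 99.2% of 2125 clusters for 17 to 19 nt, in 99.7% of 714 for 20 nt and in 99.5% of 1333 for 25 nt or more. For 21 nt it was 90.6% of 935 clusters and 78.0% ± 0.38 of the total, for 23 nt 82.5% of 1014, and for 24 nt 60.8% of 2485 clusters and 51.3% ± 0.33 of the total. Of the highest clusters at protein-coding genes, Cluster_28631 had a tRNA match (13.74, 13.56 and 13.75), Cluster_16560 at AK-LYS1 an rRNA match (13.61, 13.45 and 13.34) and Cluster_16535 at GSL12 a chloroplast match (13.22, 13.43 and 13.14). The RNA of Cluster_16535 was not found within the cluster's own coordinates. Cluster_9613 at RCA, which encodes Rubisco activase, had no match and values of 12.12, 12.14 and 12.15.

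**Figure D4:**
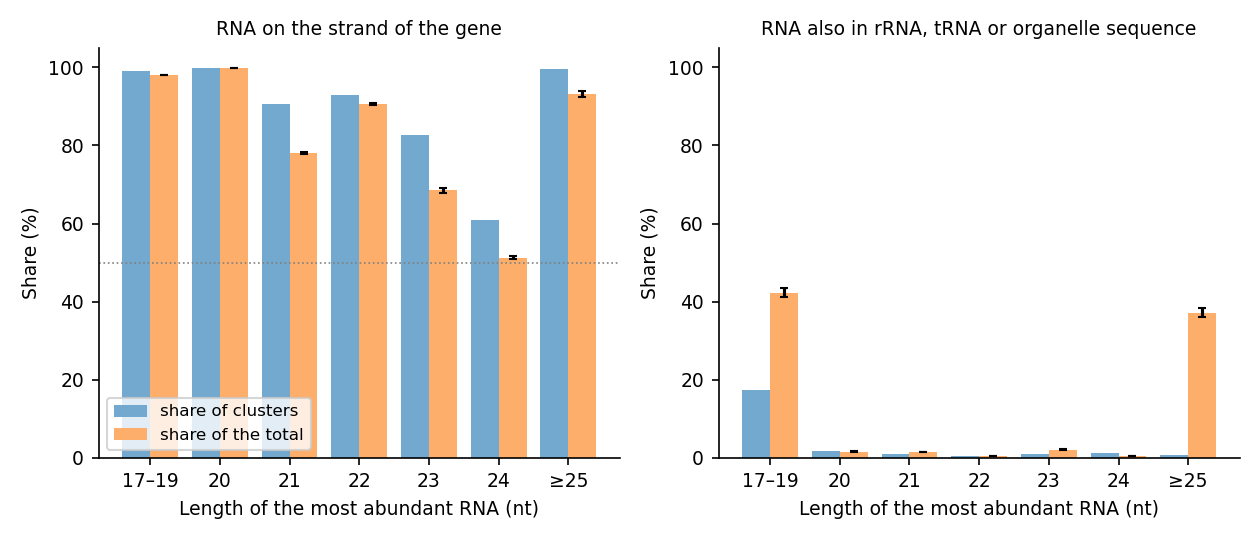
Clusters at protein-coding genes by length of their most abundant RNA (x axis, nt). The left panel shows the share with the RNA on the strand of the gene, with a dotted line at 50%, and the right panel the share whose RNA also occurs in rRNA, tRNA or organelle sequence, as a share of clusters and of their back-transformed total (bars, with the SD over 3 libraries for the total). The 24-nt clusters lie nearest to 50% on the left (60.8% and 51.3%), and on the right the 17 to 19 nt clusters reach 42.3% of the total.

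The 3 libraries were close to one another. Pearson's r between pairs of libraries over all 33171 rows was 0.994 to 0.995, and the median absolute difference of a row between 2 libraries was 0.11 to 0.12 on the log2 scale. The rows share library preparation and normalization, so r describes the tables and not independent points. The median SD of the 3 log2 values was 0.099 over all rows. By mean level it was 0.092 for the 17507 rows of log2 2 to 4, 0.11 for those of 4 to 6, 0.10 for 6 to 8, 0.096 for 8 to 10, 0.088 for 10 to 12, 0.12 for 12 to 14 and 0.067 for the 30 rows at 14 or more. The transformation behind the values is not known, so whether the small spread at the low end is that of the reads was not tested.

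**Figure D5:**
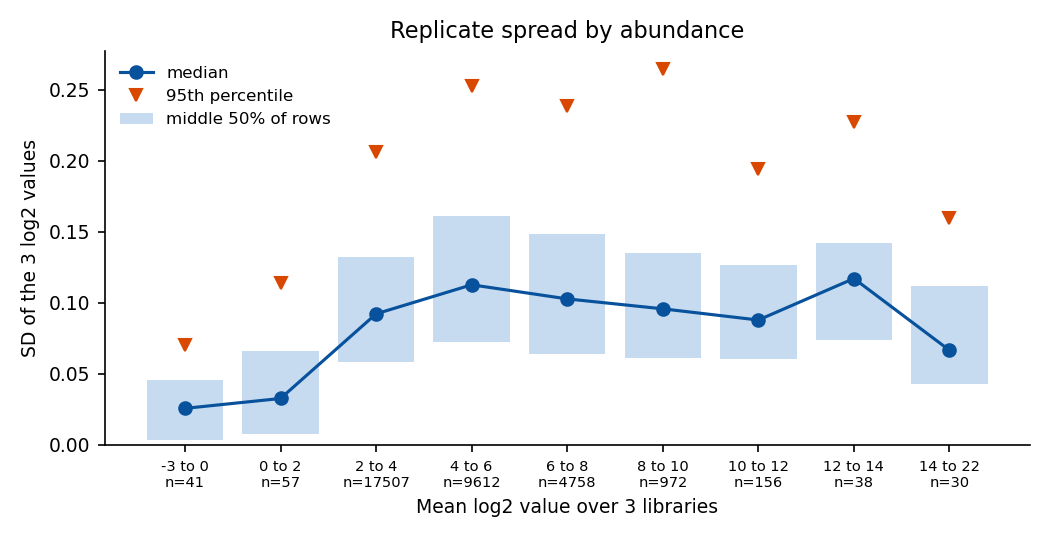
SD of the 3 log2 values of a row (y axis) by its mean log2 value (x axis, with the number of rows). Boxes span the middle 50% of rows, circles the median and triangles the 95th percentile. The median stays between 0.067 and 0.12 for all bins from 2 upward and is below 0.04 for the 98 rows under 2.

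Single rows departed from this. An SD of 0.5 or more was found in 144 rows, none of them with a mean of 10 or more. In 102 of the 144, replicate 1 was both the highest library and the farthest from the middle value, so replicate 1 stood apart in these rows. A difference of 1 or more on the log2 scale separated replicates 1 and 2 in 99 rows and replicates 1 and 3 in 82, against 24 rows for replicates 2 and 3. The miRNA row with the largest SD was MIR843, at 9.61, 8.20 and 7.83, so replicate 1 was high. Among the 224 rows with a mean of at least 10, the largest SDs were 0.33 for Cluster_4098 (lowest 9.77, highest 10.41) and 0.30 for Cluster_15262 (10.09, 10.22 and 10.65), both highest in replicate 3. The next 3, with SDs of 0.26 to 0.29, were the tRNA-Glu clusters Cluster_22727, Cluster_23432 and Cluster_20743, which listed the same 5′ RNA and were all lowest in replicate 2. The smallest SD was that of MIR166e, 0.0032, with values of 11.08, 11.08 and 11.08. The smallest SDs also included Cluster_13541 and Cluster_13548, 0.0070 and 0.013, which listed the same 22-nt RNA, and Cluster_9613 at RCA with 0.012. Over all rows, replicates 1, 2 and 3 were the farthest from the middle value in 32.8%, 32.7% and 34.4% of rows.

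The span between the study's primers for the long non-coding RNA COS (chromosome 1, 4661359 to 4663464) was overlapped by 1 cluster, which covered a part of it. Cluster_23029 (4662142 to 4663467) had log2 values of 4.88, 4.51 and 4.70, above 65.3% of all rows, and took 0.00029% of the total. It also overlapped the genes AT1G13609 and AT1G13608. Its most abundant RNA, agacugugaaacugcgag, has 18 nt and was not found within the cluster's own coordinates. The level of the cluster can therefore not be read as that of RNA from COS, and where this RNA comes from was not tested.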

How the data were processed

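Small RNA was sequenced from shoots, with libraries prepared with the NEBNext small RNA kit. According to the paper, Novogene made and sequenced the libraries. The authors removed adapters with cutadapt, defined clusters with ShortStack (17 to 29 nt) on TAIR10 and compared conditions with DESeq2. They deposited log2 normalized values, one per row and library. The transformation is not given in the sources used here. Negative numbers and a small spread at low levels resemble a regularized log, and the normalization was assumed to cover all 9 libraries. Raw depth is unknown, so no interval was computed. Columns were given to replicates by their names.

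Values were back-transformed as 2 to the power of the log2 value without filter or pseudocount. Rows were ranked by mean log2 value, and shares and SDs were computed per library. A cluster was given to a gene, on either strand, with an overlap of at least 1 nt, in the order rRNA, tRNA, snRNA or snoRNA, miRNA, other non-coding RNA, protein-coding, pseudogene. Annotation, genome and annotated miRNAs were those of RefSeq TAIR10.1. The most abundant RNA was found in its own cluster for 91.3% of nuclear clusters, 99.0% at 24 nt and 46.8% at 17 nt. Mitochondrial coordinates were not matched to it. Scripts ran in Python 3.11.15 with pandas 2.3.3 and were tested on simulated data.

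Rows named in the text were taken from lists, not all of whose rows are named. The lists held the 20 highest rows, and the 3 highest of each row type and of each length from 20 to 24 nt. They also held the members of the 10 largest miRNA families that the shares turn on, and TAS, COS and machinery miRNA loci. The 5 largest and 5 smallest SDs at a mean of at least 10 made up the last list. Others (the leading tRNA, no-position, tailed miR158a and protein-coding rows, the 5 highest 24-nt clusters, MIR843 and MIR165a) were picked with their values in view. The libraries and lists were chosen with earlier results of these data known.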

Additional observations from a re-analysis of the deposited data

How the results depend on the processing

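The alternatives were chosen with earlier results known, and 9 results were recomputed under them. Without the 10 highest rows, the miRNA rows held 11.2% of the total, 21-nt RNAs 15.8% and 24-nt RNAs 36.6%, so these 3 shares rest on the structural RNA loci in the denominator. With each MIR locus counted both as miRNA and as cluster, the miRNA share was 2.81%. The 21-nt share was 3.90% over clusters alone, 4.93% over nuclear clusters that hold their RNA and 6.21% by number of rows. The 24-nt share was 12.4% over nuclear clusters that hold their RNA, 45.8% by number and 10.2% for rows of at least 10 on the back-transformed scale. The miR398 family held 14.2% of the miRNA total with 1 row per distinct RNA, where it ranked after miR159, miR158 and miR161, and 0.643% of all rows counted once. Among nuclear clusters, rRNA held 69.2%, 0.00692% by number and 0.0% where the gene had to cover at least 50% of the cluster, since annotated rRNA genes cover less than that of both clusters. Protein-coding genes held 7.88%, 7.69% at that overlap and 40.9% by number. Leaving out each replicate in turn gave 0.079 to 0.081 for the median SD, which is then that of 2 values, 2.87% to 2.92% for miRNA rows, 4.05% to 4.11% for 21 nt, 10.4% to 10.5% for 24 nt, 21.60% to 23.2% for miR398 and 74.03% to 74.2% for the 10 highest rows. The other alternatives moved no result by more than the SD between libraries or, for values with no such SD, 5%. No paired analysis was possible because only 1 group was described. Depth is unknown, multi-mapped reads limit levels at repeated loci, and 1 RNA stands for all reads of a cluster.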
